A study of Mus musculus with 24 samples.

Results

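Between P7 and P14 the nuclei of control cardiomyocytes (CMs) showed lower levels of 380 genes, among them genes of the contractile apparatus, of calcium handling and of RNA splicing, and higher levels of 2, the potassium channel gene Kcnd3 and Fbxo43. The comparison rests on 7 of the 24 libraries of the study, 4 pools of hearts at P7 (replicates 1 to 4) and 3 pools at P14 (replicates 1, 2 and 4). P14 replicate 3 was left out by the study for low quality and enters no value below unless that is stated. The mice were XMLC2(-)Casp2(fl/fl), meaning that they carried floxed Casp2 alleles without the XMLC2-Cre transgene that would remove Casp2 in CMs, and the labels give their genotype as WT. Each pool held ventricles of 6 hearts at P7 and of 2 hearts at P14, from animals of either sex on a C57BL/6N background. The matching Casp2-depleted nuclei, XMLC2(+)Casp2(fl/fl), with 4 libraries at P7 and 3 at P14, gave a second measurement of the same interval in other libraries. Nuclei were sorted with an antibody against PCM1, a centrosomal protein that surrounds the nucleus of CMs, and their RNA was sequenced from the 3′ end.

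Shortly after birth, mouse CMs stop dividing, become binucleated or polyploid, and exchange their fetal contractile proteins for adult ones. Over the same days the T-tubules and the calcium release units are assembled and the cell turns from glucose to fatty acids as a fuel. RNA of a nucleus is mostly young RNA, rich in introns and retained transcripts, so its levels follow transcription and nuclear retention more closely than those of the whole cell. Splicing factors of the SR family, which share a domain rich in serine and arginine and gather in nuclear speckles, and regulators such as RBM20 choose the exons of titin, of the calcium channels and of other large muscle transcripts.

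The 4 P7 libraries held 1635688 to 2420016 reads on genes and the 3 P14 libraries 891817 to 1278961. At least 1 read was found for 14724, 16129, 17614 and 14416 genes at P7, and for 9257, 13651 and 7628 genes at P14, so that the days did not overlap. The mean fell by 5542 genes, with an exact two-sided permutation p of 0.0571, which is the smallest that 4 against 3 libraries allow, and the same p after adjustment over the 2 values tested. After thinning to 891817 reads, the P7 libraries still had 13989 to 16961 detected genes and the P14 libraries 7628 to 13555. Reads on no gene made up 36.7 to 54.7% of the uniquely placed reads at P7 and 63.7 to 75.2% at P14, again without overlap and with the same exact permutation p of 0.0571. Among genes with 20 or more reads in another replicate of the same day, 12% of the values were 0 at P7 and 31.4% at P14. The day of collection and the number of pooled hearts changed together, so their parts in these differences cannot be told apart. Fewer nuclei with a transcript and less of it per nucleus cannot be told apart either.

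The sort was checked on marker genes. Cardiomyocyte markers (Myh6, Tnnt2, Actc1, Ttn, Ryr2, Pcm1, Tnni3 and Myl2) took 5.41 to 8.14% of the reads at P7 and 1.21 to 4.40% at P14, and 8 of 8 were lower at P14 in the fit. The 7 marker lists of other cell types held 38 tested genes, none of which was called and 22 of which were lower in the fit, as were 62.2% of all tested genes. Fibroblast markers took 0.00789 to 0.0213% of the reads at P7 and 0.0174 to 0.0328% at P14. Endothelial markers took 0.0124 to 0.0311% at P7 and 0.00516 to 0.111% at P14, and erythroid markers at most 0.00463% at either day. Median shares at P7 and P14 were 0.0153 and 0.0269% for fibroblast, 0.0214 and 0.0414% for endothelial and 0.0341 and 0.0383% for mural markers. They were 0.0102 and 0.0217% for macrophage, 0.00267 and 0.00808% for epicardial and 0.00607 and 0.00829% for Schwann markers. Only the erythroid median was lower at P14, and in these control libraries the days overlapped for each of these lists. The part of these other cells in the changes below was not tested.

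Of 20368 genes tested with edgeR's quasi-likelihood test, 382 passed a Benjamini-Hochberg adjusted p below 0.05 and a fold change above 2-fold, which is a log2 change above 1. Only 2 of these were higher at P14, Kcnd3 and Fbxo43, and 380 were lower. This is 1.88% of the genes tested, 0.00982% higher and 1.87% lower. Counts of called genes in the lists below are to be read against these shares. At an unadjusted p below 0.05 there were 3021 genes (14.8%), of which 394 (1.93%) were higher. The median log2 fold change of all tested genes was -0.75 with TMM normalization, which scales libraries on the bulk of their shared genes. It was -0.52 with RLE size factors, -0.64 with TMM with singleton pairing, -0.12 with quantile normalization and 0.00 without any factor, so list medians below are to be read against that of all genes. Without P7 replicate 2 the count of calls dropped to 176 and without P14 replicate 4 to 203, and limma-voom with TMM made 1150. Only 166 of those 1150 were among the 382. With all 24 libraries, P14 replicate 3 included, 35 genes were called. Replicates are pools of hearts, and the fit took the spread between pools from all 21 libraries kept by the study, not from each day alone. Replicates were further apart at P14. Correlations of log2(CPM + 1) between pairs of control libraries were 0.50 to 0.56 at P14 and 0.68 to 0.76 at P7. The p-values therefore do not measure the spread of the P14 pools by themselves.

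Genes called lower were abundant at P7. Their median level was 279 CPM, the reads of a gene scaled to a common library total with TMM factors, at P7 and 32.4 CPM at P14, against 13 and 9.0 CPM over all tested genes, and 371 of the 380 were protein coding. In 369 of the 380, every P14 library lay below every P7 library, where 13.5% of all tested genes did so. This order and the level at P7 come from the libraries that made the calls, so they add no support to them. Reads were absent from all 3 P14 libraries for 66 of the 380, against 25.7% of all tested genes, and 221 of the 380 had reads in each P14 library. The called genes spanned a median of 47.4 kb in the genome, against 28.2 kb over all genes. By span the shift went the other way, since of 5 equal groups by span the shortest had a median log2 fold change of -1.66 and the longest -0.12. Zeros at P14 made up 74.0% of the values in the shortest group and 19.4% in the longest, against 44.6% and 6.80% at P7. Counting covered introns as well as exons.

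**Figure D1:**
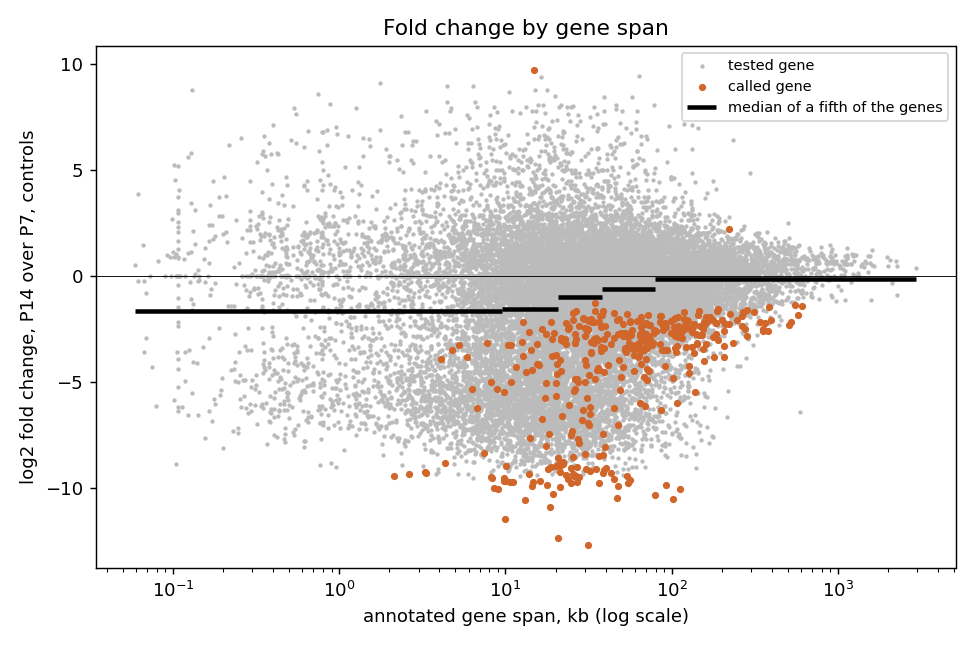
Log2 fold change of P14 over P7 in control nuclei (vertical axis) against the annotated span of the gene in kb (horizontal log axis), with a grey point for each tested gene, orange points for called genes and black bars for the medians of 5 groups of genes of rising span. The bars rise from -1.66 in the shortest group to -0.12 in the longest, and 2 orange points lie above 0.

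Of the contractile isoform genes, 2 of 8 listed as fetal and 3 of 9 listed as adult were called lower. Fetal and adult are names of the lists here and do not trace a switch between forms. The adult list took 1.45 to 3.16% of the reads in P1 controls and 2.81 to 3.48% at P7. Tnnt2, on that list, had a mean of 15074 CPM at P1 and 16965 CPM at P7. Tnni1, the slow skeletal troponin I that fetal CMs use before they switch to the cardiac form, had 691, 564, 357 and 464 CPM in P7 replicates 1 to 4 and no read in any P14 library. With a limit of 3 reads over the 3 P14 libraries its level was at least 719-fold lower than at P7 (adjusted p = 4.7e-34). That limit covers counting error only. Yet 31.4% of P14 control values were 0 among the genes, described above, that were well read in another replicate. Fold changes given as at least a value, here and below, are thus no bounds on the spread between pools. Tnni1 lies on GRCm39 chromosome 1 at 135707172 to 135738727. Tnnt2, the cardiac troponin T of the thin filament, lies on the same chromosome at 135763738 to 135780315. Tnnt2 had 11933, 24262, 15788 and 15878 CPM at P7 and 4229, 1601 and 3152 CPM in P14 replicates 1, 2 and 4. All P14 values were thus below all P7 values, and the log2 fold change was -2.5 ± 0.32 (SE, adjusted p = 3.8e-11). The slow fetal isoform and the main cardiac thin filament gene, neighbours on the chromosome, thus both fell.

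Of the other genes listed as fetal, Myh7b was called as well. Myh7b, a slow myosin heavy chain, had 480 to 907 CPM at P7 and 53.7, 33.8 and 140 CPM at P14, a log2 fold change of -3.21 ± 0.60 (adjusted p = 4.5e-05) without overlap. Myh7, the fetal ventricular myosin heavy chain, had only 22.5, 57.6, 93.6 and 13.5 CPM at P7 and 39.6, 36.8 and 7.59 CPM at P14, so that the days overlapped (adjusted p = 0.71). Tnnt1, the slow skeletal troponin T, was spread from 71.1 to 172 CPM at P7, and had 103 CPM in P14 replicate 1, 3.00 in replicate 2 and none in replicate 4 (adjusted p = 0.37). The atrial light chain Myl4 and the skeletal actin Acta1 had no read at P14 and at most 18.3 and 11.5 CPM at P7, and neither passed the test. Acta2 and Myl7 had 13 and 3.60 CPM at most at P7.

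Among the genes listed as adult, Tnnt2, Myl2 and Actc1 were called lower. Myl2, the ventricular regulatory light chain, had 2304, 3538, 2105 and 1822 CPM at P7 and 754, 191 and 695 CPM at P14 (log2 fold change -2.16 ± 0.43, adjusted p = 0.00014). Actc1, the cardiac actin, had 250, 333, 180 and 89.2 CPM at P7 and 51.6, 7.5 and 13.7 CPM at P14 (-3.13 ± 0.77, adjusted p = 0.006). Myh6, the adult cardiac myosin heavy chain, had 12361 to 21110 CPM at P7 and 6112, 1131 and 2533 CPM at P14, without overlap, yet its adjusted p was 0.11. Tnni3, the troponin I that replaces Tnni1, was likewise below its P7 range of 1492 to 2338 CPM in each P14 library, at 571, 35.3 and 147 CPM (-2.87 ± 1.03, adjusted p = 0.24). Tpm1, Myl3 and Myom2 also did not overlap and did not pass the test (adjusted p of 0.30, 0.44 and 0.14), and Tnnc1, the calcium-binding troponin, had 1624 to 3721 CPM at P7 and 603 to 1658 CPM at P14, with overlap. Of the 17 fetal and adult isoforms tested, 5 were called lower, 16 were lower in the fit and 11 did not overlap. Over all tested genes these shares were 1.87%, 62.2% and 13.5%, in that order. The median log2 fold change was -3.40 over the 8 fetal isoforms, or -2.36 with the 4 that had no read at P14 set at the floor of 3 reads, and -2.39 over the 9 adult ones, against -0.75 over all genes, or -0.62 with that floor. Under the scalings tried the fitted medians reached at most -2.13 and -1.61. The call of Myl2 was lost without P14 replicate 2 (adjusted p = 0.063), and that of Actc1 without P14 replicate 2, P14 replicate 4 or P7 replicate 2 (adjusted p of 0.11, 0.072 and 0.067).

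The stretch of DNA around the start of 3 of these genes is shown so that the genes that fell and the gene that rose can be compared at their promoters. Each is a window of 300 bases that holds a RefSeq start, in build GRCm38.p6, and was read on the strand of the gene. Capitals mark matches on either strand to TATAAA, to CANNTG (the E-box of muscle regulators), to the CArG box bound by serum response factor and to the MEF2 motif.
Tnni1, chr1:135799171-135799470, plus strand, from 1 of 2 listed starts: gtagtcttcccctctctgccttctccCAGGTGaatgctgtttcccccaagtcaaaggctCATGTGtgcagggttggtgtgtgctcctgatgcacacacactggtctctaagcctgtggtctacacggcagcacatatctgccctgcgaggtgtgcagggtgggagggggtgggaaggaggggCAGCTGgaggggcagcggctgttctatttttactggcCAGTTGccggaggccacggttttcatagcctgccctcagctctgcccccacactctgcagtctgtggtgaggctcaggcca
Actc1, chr2:114052826-114053125, minus strand: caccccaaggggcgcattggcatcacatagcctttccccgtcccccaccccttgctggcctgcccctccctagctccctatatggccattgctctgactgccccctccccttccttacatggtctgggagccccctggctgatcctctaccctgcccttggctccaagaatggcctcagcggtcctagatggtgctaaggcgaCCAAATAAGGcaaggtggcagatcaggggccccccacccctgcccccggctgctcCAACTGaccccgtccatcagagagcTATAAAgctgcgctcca
Kcnd3, chr3:105451640-105451939, plus strand: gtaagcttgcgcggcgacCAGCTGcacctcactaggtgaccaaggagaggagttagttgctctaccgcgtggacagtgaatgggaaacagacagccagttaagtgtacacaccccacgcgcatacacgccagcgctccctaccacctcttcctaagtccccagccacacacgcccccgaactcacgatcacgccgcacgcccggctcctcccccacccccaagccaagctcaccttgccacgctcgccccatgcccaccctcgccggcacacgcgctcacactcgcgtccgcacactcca
The Actc1 window held a CArG box, a TATAAA and a single E-box, the Tnni1 window 4 E-boxes, and the Kcnd3 window a single E-box. Over the 32851 promoters of the table, 1.63% held a CArG box, 13.6% a TATAAA, 72.3% an E-box and 0.557% a MEF2 motif. Of the 16 contractile isoform genes in that table, 4 held a CArG box (Acta1, Actc1, Myl3 and Myl7), 5 a TATAAA, 15 an E-box and none a MEF2 motif in these windows. Those counts are by gene, while the shares of all promoters are by promoter. By promoter, 4 of 20 held a CArG box, 5 a TATAAA, 19 an E-box and 0 a MEF2 motif.

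On the list of titin and the Z-disc, 10 of 31 genes were called lower, though not Ttn itself. Ttn, the giant spring of the sarcomere, had 23615, 60627, 44027 and 31774 CPM at P7 and 15945, 2977 and 6471 CPM at P14, without overlap, at an adjusted p of 0.30. Mybpc3, the myosin-binding protein of the thick filament, went from 6106 to 13543 CPM at P7 to 2368, 459 and 257 CPM at P14 (log2 fold change -3.08 ± 0.97, adjusted p = 0.16). P14 replicate 1 had the highest level of either gene among the P14 libraries. Trim55, a ubiquitin ligase of the M-band, had 911, 1224, 924 and 805 CPM at P7 and 86.9, 40.5 and 58.5 CPM at P14 (-3.96 ± 0.56, adjusted p = 6.9e-09). Pdlim5, an adaptor at the Z-disc, had 437, 274, 200 and 129 CPM at P7 and 28.3, 11.3 and 9.11 CPM at P14 (-3.99 ± 0.78, adjusted p = 0.00012). For both, the highest P14 library lay well under the lowest P7 library. Ankrd1, a stress-responsive partner of titin, had 1399, 10493, 4455 and 3893 CPM at P7 and 192, 45.8 and 234 CPM at P14 (-5.01 ± 1.11, adjusted p = 0.028). Nexn, a filament protein of the Z-disc, had 5078 to 9422 CPM at P7 and 2742, 231 and 1464 CPM at P14 (-2.14 ± 0.54, adjusted p = 0.022). The list also held the thick filament and the M-band; none of its genes was called higher and 18 did not overlap (13.5% of all genes did not), with a median of -2.24. Taking the replicate number as a block, Nexn and Ankrd1 were no longer called (adjusted p of 0.24 and 0.075). Leaving out P7 replicate 1 or 2 ended the call of Nexn (adjusted p of 0.11 and 0.18), and leaving out P7 replicate 2 or any of the P14 libraries ended that of Ankrd1 (adjusted p of 0.076 to 0.10).

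**Figure D2:**
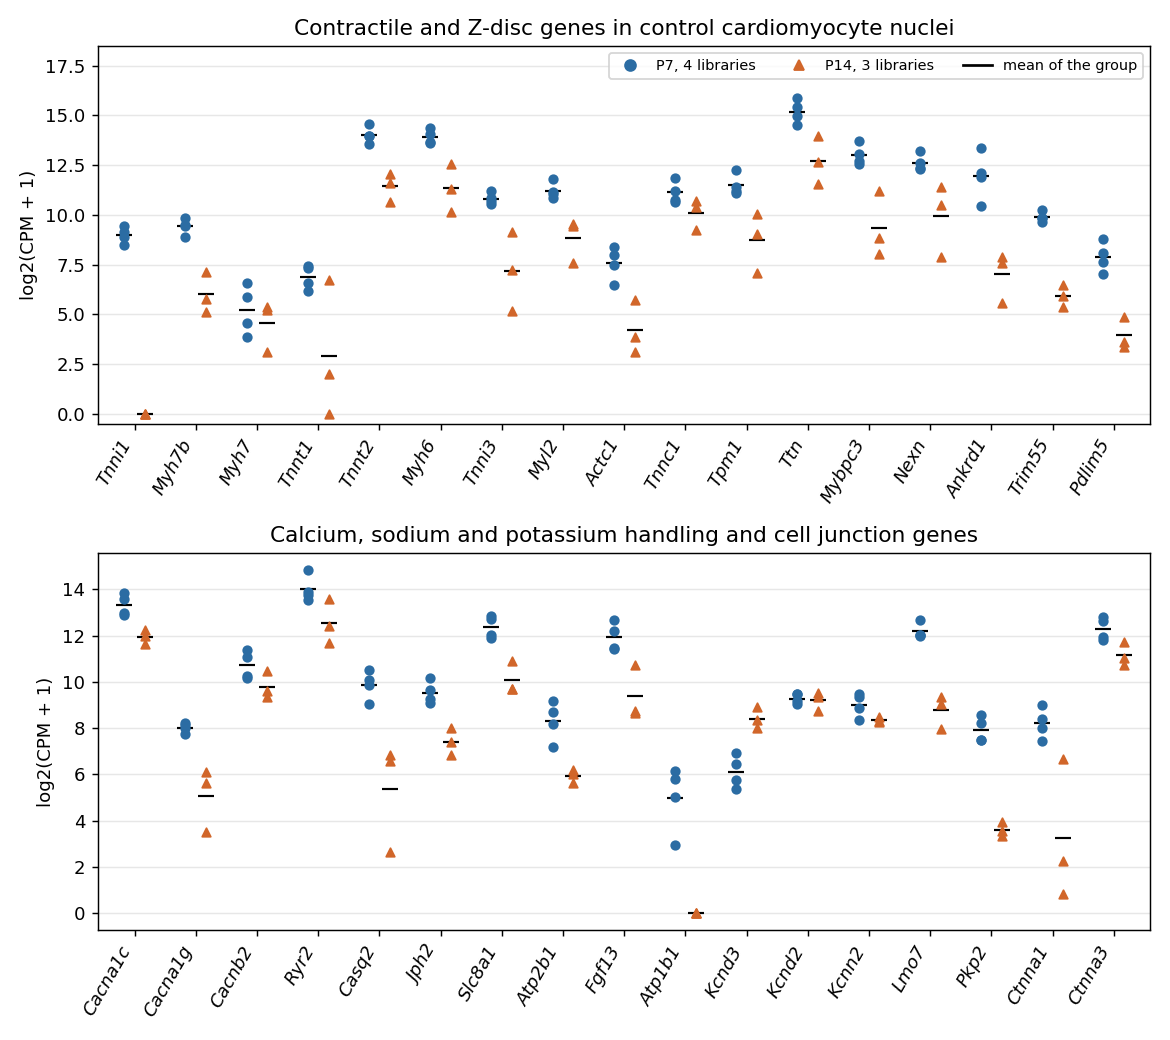
Level as log2(CPM + 1) of contractile and Z-disc genes (upper panel) and of ion handling and junction genes (lower panel) in each P7 library (blue circles) and P14 library (orange triangles), with bars for the means of the log values. Tnni1 and Atp1b1 sit at 0 in the 3 P14 libraries, and Kcnd3 is the gene whose P14 libraries, at 252 to 477 CPM, all lie above its P7 libraries, at 40.6 to 121 CPM.

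Several genes of calcium entry and release were called lower. Cacna1c, the pore of the L-type calcium channel that starts each contraction, had 12237, 14709, 7986 and 7712 CPM at P7 and 4802, 4016 and 3148 CPM at P14 (log2 fold change -1.42 ± 0.32, adjusted p = 0.0019). Its P14 libraries were close to each other and all below P7. Cacna1g, a T-type channel of the young heart, had 216 to 296 CPM at P7 and 67.2, 10.5 and 48.6 CPM at P14 (-2.63 ± 0.78, adjusted p = 0.042). Ryr2, the calcium release channel of the sarcoplasmic reticulum, had 12097, 29525, 14025 and 15042 CPM at P7 and 12146, 3298 and 5424 CPM at P14. It was called (-1.35 ± 0.31, adjusted p = 0.0019) although P14 replicate 1 lay just above P7 replicate 1. Casq2, which stores calcium in the reticulum, had 526, 1458, 1081 and 934 CPM at P7 and 113, 93.8 and 5.31 CPM at P14 (-3.82 ± 0.58, adjusted p = 1.3e-07). Slc8a1, the sodium-calcium exchanger that clears calcium from the cell, had 7420, 6676, 4235 and 3804 CPM at P7 and 1940, 821 and 821 CPM at P14 (-2.21 ± 0.36, adjusted p = 1.6e-06). Both fell without overlap. In all, 7 of 28 genes of calcium release, uptake and storage and 2 of 12 calcium channel genes were called lower, with medians of -1.26 and -0.82, the latter near that of all genes. With genes without a read at P14 at the floor, the channel median was -0.54. Under quantile normalization Cacna1c and Ryr2 had log2 fold changes of 0.04 and 0.66, so their direction did not hold there. Cacna1c lost its call without P14 replicate 2 or 4 (adjusted p of 0.055 and 0.17), Ryr2 without P14 replicate 2, P14 replicate 4 or P7 replicate 2 (adjusted p of 0.23, 0.20 and 0.14), and Cacna1g without any library but P14 replicate 1 (adjusted p of 0.080 to 0.25). With the replicate block, Ryr2 was not called (adjusted p = 0.098).

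Among the channels of repolarization a single gene was called, and it was higher at P14. Kcnd3 encodes Kv4.3, a pore subunit of the transient outward potassium current that shortens the mouse action potential. It lies on GRCm39 chromosome 3 at 105359284 to 105581318 and had 121, 52.6, 40.6 and 85.5 CPM at P7 and 252, 325 and 477 CPM at P14. Every P14 library was above every P7 library, as for 1.92% of all tested genes, and the log2 fold change was 2.23 ± 0.65 (adjusted p = 0.039). At P1 its 3 control libraries had 64.4 to 164 CPM. Kcnd2, its partner Kv4.2, had 519 to 712 CPM at P7 and 737, 642 and 433 CPM at P14, so that the days overlapped. Kcnn2, a calcium-activated potassium channel, had 327 to 705 CPM at P7 and 310 to 359 CPM at P14, with overlap. Of 24 potassium channel genes, 1 was called higher and none lower, and their median of -0.82 was close to that of all genes. In the fit 7 were higher and 17 lower. The list as a whole took 0.249 to 0.337% of the reads at P7 and 0.364 to 0.486% at P14, without overlap. In Casp2-depleted nuclei it took 0.283 to 0.310% and 0.412 to 0.504%, again without overlap. These shares are of library totals, without TMM factors. Genes on the opposite strand overlap Kcnd3, among them Kcnd3os, and the sources used here do not state whether counting used strand. Kcnd3 lost its call without P14 replicate 4 (adjusted p = 0.22) and without P7 replicate 2, 3 or 4 (adjusted p of 0.13, 0.16 and 0.083).

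Genes of sodium handling were lower in part. Fgf13, an intracellular growth factor homologue that tunes sodium channels, had 4694, 6464, 2705 and 2846 CPM at P7 and 1718, 403 and 427 CPM at P14 (-2.30 ± 0.40, adjusted p = 9.6e-06). Atp1b1, the beta subunit of the sodium pump, had 69.5, 54.0, 31.4 and 6.75 CPM at P7 and no read at P14, which makes it at least 58.3-fold lower (adjusted p = 0.015). Of 17 genes on this list, 2 were called lower, against 1.87% of all genes. Atp1b1 lost its call without P7 replicate 1 or 2 or P14 replicate 2 or 4 (adjusted p of 0.054 to 0.077).

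Junctions between CMs were touched at some of their parts. Pkp2, a plakophilin of the desmosome, had 373, 299, 176 and 180 CPM at P7 and 9.19, 14.3 and 10.6 CPM at P14 (-4.49 ± 0.90, adjusted p = 0.00018), with tight P14 values far below P7. Ctnna1, an alpha-catenin that ties cadherins to actin, had 174 to 508 CPM at P7 and 99.0, 3.75 and 0.759 CPM at P14 (-3.20 ± 0.76, adjusted p = 0.0038). Its heart-enriched relative Ctnna3 had 7240, 6367, 3548 and 3877 CPM at P7 and 3413, 1722 and 2072 CPM at P14, without overlap but at an adjusted p of 0.06. Lmo7, a scaffold at adherens junctions, had 4033, 6531, 4216 and 4169 CPM at P7 and 657, 252 and 534 CPM at P14 (-3.30 ± 0.42, adjusted p = 3.5e-11). Sptbn1, a beta-spectrin under the membrane, had 2798 to 9890 CPM at P7 and 2683, 800 and 1170 CPM at P14 (-1.94 ± 0.37, adjusted p = 7e-05). Of 22 intercalated disc genes, 2 were called lower and 6 did not overlap, where 1.87% and 13.5% of all genes did so, and none of 14 genes of the dystrophin complex was called. Lamb1, a laminin chain of the basement membrane, was 1 of 2 called among 28 matrix and integrin genes, with 165, 138, 126 and 14.2 CPM at P7 and 4.24 and 0.75 CPM and no read at P14 (-5.97 ± 1.26, adjusted p = 0.0005). Ctnna1 was not called without P14 replicate 2, P14 replicate 4 or P7 replicate 2 (adjusted p of 0.096, 0.10 and 0.055).

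SR proteins and nuclear speckle genes had the largest share of calls of any list. The lists were chosen with earlier results of these data known, so this rank is no test of the group. The share of all genes set beside it is not matched for level. Genes called lower had a median of 279 CPM at P7, against 13 over all genes. Of 33 genes tested, 20 (60.6%, against 1.87% of all genes) were called lower, 27 did not overlap and 32 were lower in the fit, with a median log2 fold change of -2.91. Relative to the median of all genes it was at -2.62 to -2.07 under the scalings tried. Rbm25, a splicing factor that binds exon enhancers, was the most abundant at 3697, 17506, 8278 and 9888 CPM at P7 and 3516, 2073 and 2951 CPM at P14 (-1.79 ± 0.34, adjusted p = 7e-05). P7 replicate 1 was only slightly above P14 replicate 1. Pnisr, a speckle protein rich in serine and arginine, had 2044, 7685, 3864 and 3872 CPM at P7 and 1351, 305 and 651 CPM at P14 (-2.51 ± 0.41, adjusted p = 2.3e-06). Luc7l3, a component of the U1 particle that recognizes the 5′ splice site, had 2153 to 8948 CPM at P7 and 1521 to 2772 CPM at P14 and was called with overlap (-1.28 ± 0.36, adjusted p = 0.022). Ddx5, an RNA helicase of the spliceosome, had 323, 346, 312 and 366 CPM at P7 and none, 7.5 and 17.5 CPM at P14 (-5.33 ± 0.96, adjusted p = 2.1e-05). Rsrp1 had 187 to 389 CPM at P7 and 45.9 and 9.75 CPM and no read at P14 (-3.90 ± 0.91, adjusted p = 0.0027).

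Among the called members of this list without a read at P14 were Ccnl1 and Srsf3. Ccnl1, a cyclin that works with splicing kinases, had 186, 151, 105 and 42.7 CPM at P7 and no read at P14, at least 172-fold lower (adjusted p = 2e-05). Srsf3, an SR protein whose poison exon limits its own level, had 153 CPM in P7 replicate 1, 38.2 to 39.3 CPM in the other P7 libraries and no read at P14, at least 100-fold lower (adjusted p = 0.0058). Of the 20 called genes, 16 had reads in each P14 library, so that most of these calls did not rest on absent reads. Srsf3 lost its call without P7 replicate 1 (adjusted p = 0.055), Rsrp1 without P14 replicate 4 (adjusted p = 0.053), and Luc7l3 without P14 replicate 2 or 4 or P7 replicate 2 or 4 (adjusted p of 0.057 to 0.39). Pnisr and Luc7l3 were not called with the replicate block (adjusted p of 0.14 and 0.099), and quantile normalization gave Luc7l3 a log2 fold change of 0.18.

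**Figure D3:**
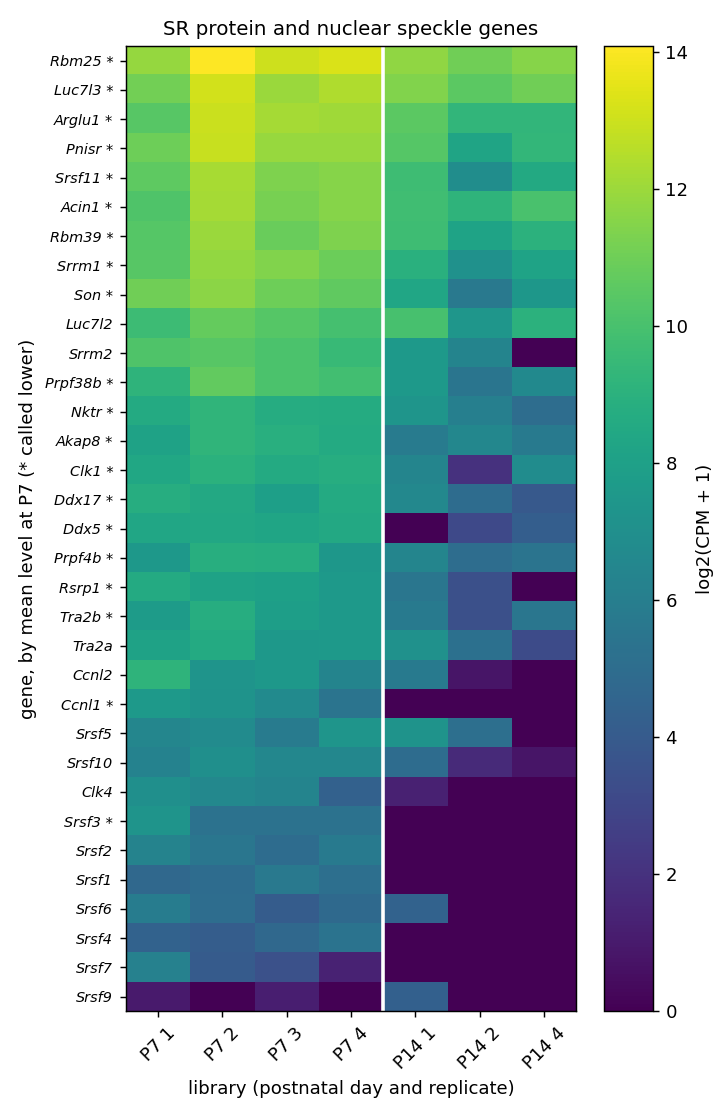
Level as log2(CPM + 1), by colour, of the 33 SR protein and nuclear speckle genes (rows, ordered by mean level at P7, with a star on those called lower) in the 4 P7 and 3 P14 libraries (columns). Starred rows number 20, and P7 replicate 2 has the highest level in most of the abundant rows.

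Other RNA-binding proteins had fewer calls. Rbm20, which decides the titin exons kept in the heart, had 5673, 7890, 4334 and 4493 CPM at P7 and 3462, 911 and 1358 CPM at P14 (-1.55 ± 0.37, adjusted p = 0.0043), without overlap. It was 1 of 2 called lower among 14 muscle splicing regulators. Hnrnpm, an RNA-binding protein of the spliceosome, had 281, 593, 338 and 297 CPM at P7 and 134 and 39.0 CPM and no read at P14 (-2.71 ± 0.62, adjusted p = 0.002). Hnrnpdl had 158, 87.9, 78.5 and 6.75 CPM at P7 and no read at P14, at least 122-fold lower (adjusted p = 0.0046). Of 23 hnRNP genes, 4 were called lower, 22 were lower in the fit and 13 did not overlap, with a median of -3.04. All tested genes had shares of 1.87%, 62.2% and 13.5% and a median of -0.75. Leaving out P14 replicate 2, P14 replicate 4 or P7 replicate 2 ended the call of Rbm20 (adjusted p of 0.19, 0.19 and 0.063), and leaving out P14 replicate 4 or adding the replicate block ended that of Hnrnpm (adjusted p of 0.11 and 0.098).

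Of the long noncoding RNAs, 3 of 23 tested were called lower (1.87% of all genes were), among them Mhrt and Firre. The 26 on the list took 6.56 to 9.59% of the reads at P7 and 0.83 to 4.45% at P14, and most of that share was Malat1, which did not pass the test, and Mhrt. Mhrt, a heart RNA transcribed antisense to the myosin genes, was the most abundant called gene at 13669, 44926, 27100 and 28691 CPM at P7 and 9503, 2712 and 6088 CPM at P14 (-2.23 ± 0.32, adjusted p = 1.6e-08). Its GRCm39 position, chromosome 14 at 55205795 to 55229058 on the plus strand, overlaps Myh6 and Myh7 on the minus strand, and without a stated strand setting their reads cannot be told apart with certainty. Malat1, the speckle-associated RNA, had 66765, 116170, 62019 and 48792 CPM at P7 and 28519, 2550 and 6064 CPM at P14, without overlap (-2.57 ± 0.90, adjusted p = 0.23). Firre, an X-linked RNA that organizes chromatin contacts, had 199, 75.6, 95.6 and 40.5 CPM at P7 and no read at P14, at least 151-fold lower (adjusted p = 0.0016). With the replicate block, Mhrt was not called (adjusted p = 0.13).

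Transcription factors of the heart were lower in part. Gata6, a zinc-finger factor of heart formation, had 213, 323, 111 and 133 CPM at P7 and 12.7, 3.00 and 11.4 CPM at P14 (-4.42 ± 0.85, adjusted p = 9e-05). Mef2a, which drives muscle genes, had 439, 389, 303 and 187 CPM at P7 and 43.1, 41.3 and 22.8 CPM at P14 (-3.20 ± 0.69, adjusted p = 0.00081). Myocd, the coactivator of serum response factor, had 2204 to 9006 CPM at P7 and 2348 to 3324 CPM at P14, with overlap. Of 23 such genes, 6 were called lower and 12 did not overlap, against 1.87% and 13.5% of all genes, and none was called higher. The median was -2.11, or -1.72 with genes without a read at P14 at the floor. Of 24 nuclear receptors and coactivators that drive maturation, a single gene was called, the corepressor Ncor1, with 1115, 4658, 1726 and 2246 CPM at P7 and 851, 460 and 773 CPM at P14 (-1.81 ± 0.42, adjusted p = 0.002). Their median of -0.81 was near that of all genes. The call of Ncor1 was lost without P14 replicate 2 or P7 replicate 2 (adjusted p of 0.11 and 0.19).

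Metabolic genes had few calls. Acat1, the thiolase of ketone use, had 144, 230, 131 and 249 CPM at P7 and 24.7, none and 2.28 CPM at P14 (-4.37 ± 0.99, adjusted p = 0.0019). Ivd, a dehydrogenase of leucine breakdown, had 143, 180, 115 and 139 CPM at P7 and a single read at P14 (-8.78 ± 1.49, adjusted p = 4e-06). Acacb, which makes the malonyl-CoA that restrains fatty acid entry into mitochondria, had 498 to 628 CPM at P7 and 89.8, 96.0 and 242 CPM at P14 (-1.97 ± 0.58, adjusted p = 0.043). Fabp3, the fatty acid carrier of the heart, had 494 to 1164 CPM at P7 and 275, 3.00 and 133 CPM at P14, without overlap and without passing the test (adjusted p = 0.33). In fatty acid uptake and oxidation, 3 of 32 genes were called lower and 14 did not overlap, with a median of -1.80. All tested genes had shares of 1.87% and 13.5% and a median of -0.75. Eno3, the muscle enolase of glycolysis, had 222, 90.7, 60.2 and 180 CPM at P7 and reads in P14 replicate 4 alone, at 5.31 CPM (-6.24 ± 1.22, adjusted p = 0.00012). It was 1 of 2 called lower among 27 genes of glucose use. Acacb lost its call without any 1 library but P14 replicate 4 (adjusted p of 0.065 to 0.24), and Acat1 without P14 replicate 2 (adjusted p = 0.056).

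Of 78 nuclear genes of the respiratory complexes and ATP synthase, 71 were lower in the fit, 29 did not overlap, 25 had no read at P14 and 3 were called lower. Of all tested genes, 62.2%, 13.5%, 25.7% and 1.87% did so, in that order. These were Uqcrq of complex III, with 19 to 76.9 CPM at P7, Cox6a1 of complex IV, with 29.5 to 86.2 CPM at P7, and Atp5mg of ATP synthase, with 65.2 to 119 CPM at P7. The former pair had no read at P14, at least 68.8-fold and 65.7-fold lower (adjusted p of 0.031 and 0.028), and Atp5mg had 2.25 to 5.66 CPM at P14 (adjusted p = 0.038). Each of these 3 calls was lost without P7 replicate 1, P7 replicate 2, P14 replicate 2 or P14 replicate 4, at adjusted p of 0.056 to 0.16. Uqcrq and Cox6a1 also lost theirs without P14 replicate 1 (0.080 and 0.073 as adjusted p), Cox6a1 and Atp5mg without P7 replicate 4 (0.068 and 0.052) and Atp5mg without P7 replicate 3 (0.073). None of the 8 mitochondrially encoded genes tested was called. mt-Cytb, for cytochrome b, had 317 to 547 CPM at P7 and 354, 134 and 147 CPM at P14, with overlap. Of 48 cytosolic ribosome genes, 19 had no read at P14, 37 were lower in the fit and 1 was called, a share near the 1.87% of all genes. This was Rps24, with 12 to 107 CPM at P7 and none at P14 (at least 93.4-fold lower, adjusted p = 0.017). Rps24 lost its call without P7 replicate 1 or 2 or any P14 library (adjusted p of 0.052 to 0.091).

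Few cell cycle genes were called. Mki67, the proliferation antigen, had 88.9, 61.9, 85.7 and 30.0 CPM at P7 and no read at P14, at least 93.9-fold lower (adjusted p = 0.02). Incenp, a subunit of the chromosomal passenger complex, had 56.5, 462, 257 and 271 CPM at P7 and reads at P14 in replicate 2 alone, at 43.5 CPM (-4.17 ± 0.80, adjusted p = 0.00013). Lig1, the ligase that joins Okazaki fragments, had 94.6, 357, 130 and 147 CPM at P7 and reads in P14 replicate 1 alone, at 61.5 CPM (-3.14 ± 0.83, adjusted p = 0.014). Of 32 genes of mitosis and cytokinesis, 3 were called lower and 1 higher, and of 27 genes of DNA replication 1 was called lower, with medians of -2.61 and -2.78. These medians were -1.54 and -1.40 with the 9 and 11 genes without a read at P14 at the floor, and -1.06 and -0.54 under quantile normalization. The called rise was Fbxo43, an inhibitor of the anaphase-promoting complex best known in meiosis, with no read at P7 and 51.6, 14.3 and 140 CPM at P14, at least 139-fold higher by the floor of 3 reads over the P7 libraries (adjusted p = 0.043). Fbxo43 had 276 reads over the 3 P14 libraries, and P14 replicate 4 held the highest level. No gene among 23 regulators of G1 and 10 of the PIDDosome and p53 pathway was called. Cradd, the PIDDosome adapter also known as RAIDD, had 130 to 197 CPM at P7 and 89.1, 70.5 and no CPM at P14 (-1.57 ± 0.82, adjusted p = 0.33), and Mdm4, an inhibitor of p53, had 173 to 388 CPM at P7 and 17.7, 60 and 69.8 CPM at P14 (-2.48 ± 0.78, adjusted p = 0.067), each without overlap. Mki67 was not called without P7 replicate 1 or 2 or any P14 library (adjusted p of 0.058 to 0.10), Lig1 without P7 replicate 2, P14 replicate 2 or P14 replicate 4 (adjusted p of 0.18 to 0.21), and Fbxo43 without P14 replicate 4 or any P7 library (adjusted p of 0.12 to 0.22).

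Imprinted and signalling genes added further falls. Plagl1, a maternally imprinted zinc-finger factor of growth, had 317, 1335, 622 and 621 CPM at P7 and 86.2, 45.8 and 124 CPM at P14 (-3.08 ± 0.49, adjusted p = 4.8e-07); at P1 its control libraries had 953, 1664 and 1939 CPM. Grb10, an adaptor that restrains insulin signalling, had 150, 134, 92.3 and 7.5 CPM at P7 and 3.53 and 0.75 CPM and no read at P14 (-5.97 ± 1.08, adjusted p = 2.1e-05). Of 16 imprinted genes tested, 4 were called lower, against 1.87% of all genes. Prkar1a, the regulatory subunit that holds protein kinase A silent, had 190, 271, 120 and 94.5 CPM at P7 and reads in P14 replicate 2 alone, at 3.75 CPM (-6.99 ± 1.42, adjusted p = 0.00023). Pde4b, which degrades cyclic AMP, had 489 to 2033 CPM at P7 and 404, 226 and 131 CPM at P14 (-2.17 ± 0.49, adjusted p = 0.0018). Its relative Pde4d had 3342, 7271, 3240 and 4010 CPM at P7 and 4806, 5853 and 4873 CPM at P14 and did not change beyond its spread (0.21 ± 0.34). Of 24 genes of cyclic nucleotide signalling, 3 were called lower, again against 1.87% of all genes. Akap9, an anchor of protein kinase A at the centrosome and Golgi, had 506, 1008, 736 and 299 CPM at P7 and 85.5, 57.8 and 31.1 CPM at P14 (-3.45 ± 0.62, adjusted p = 2e-05), 1 of 3 called among 18 nuclear envelope and centrosome genes. Mob1b, a partner of the LATS kinases, was the only called gene of 19 in the Hippo pathway, with 32.1 to 67.4 CPM at P7 and no read at P14, at least 70.1-fold lower (adjusted p = 0.0048). The receptor Erbb4, through which neuregulin acts on CMs, had 1456 to 2959 CPM at P7 and 1515 to 2304 CPM at P14, with overlap. Pde4b lost its call without P14 replicate 4 or P7 replicate 1 (adjusted p of 0.10 and 0.072).

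Some of the steepest falls among genes that kept a read at P14 lay outside these groups. Ptma, the chromatin-associated prothymosin, had 60.1, 273, 102 and 153 CPM at P7 and a single read at P14 (-8.81 ± 1.39, adjusted p = 4.6e-07). Kmt5c, a histone H4 methyltransferase of heterochromatin, had 182, 93.6, 36.0 and 107 CPM at P7 and a single read at P14 (-8.32 ± 1.78, adjusted p = 0.00068). Fbxo32, the muscle ubiquitin ligase known as atrogin, had 60.9 to 112 CPM at P7 and likewise a single read (-8.05 ± 2.09, adjusted p = 0.011), and was 1 of 2 called among 38 genes of ubiquitin ligases and the proteasome. A fitted change of this size depends on how the fit treats such sparse counts. Fbxo32 lost its call without P14 replicate 4 or P7 replicate 2 (adjusted p of 0.071 and 0.061). Dock2, a guanine exchange factor of blood cells, did not pass the test but had higher levels at P14, with 27.2, 31.7, 55.0 and 36.7 CPM at P7 and 104, 263 and 273 CPM at P14. All P14 values were higher, but the adjusted p was 0.11 (log2 fold change 2.5 ± 0.85).

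**Figure D4:**
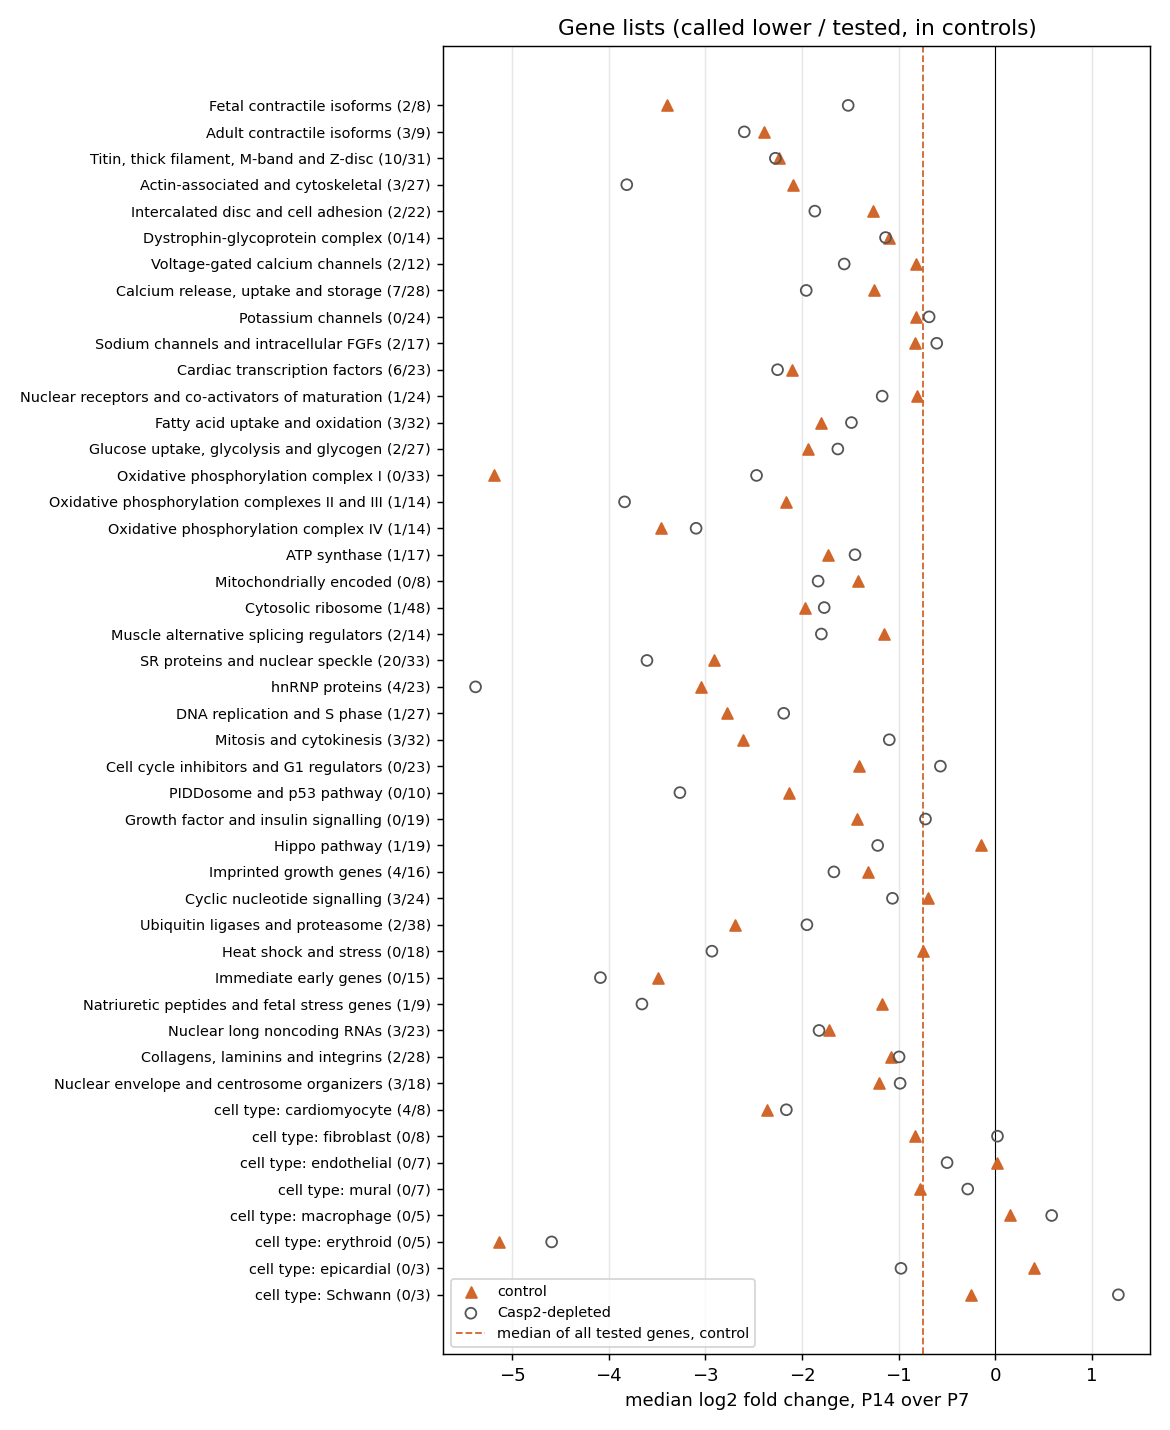
Median log2 fold change of P14 over P7 for each gene list in control (orange triangles) and Casp2-depleted nuclei (open circles), with the number called lower in controls of the number tested beside each name and a dashed line at the median of all genes in controls, -0.75. SR protein and nuclear speckle genes have the most calls, 20 of 33, and lie at -2.91.

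In all, 29 of the 38 lists of genes other than cell type markers held a gene called lower, and 35 of 38 had a median below that of all genes. Against 0, these medians kept their direction under every scaling except for the Hippo pathway, cyclic nucleotide signalling and heat shock. Those lay at or above 0 under at least 1 scaling, reaching 0.41, 0.12 and 0.14, and also rose above the median of all genes. Relative to that median, calcium channels, potassium channels and nuclear receptors came as near as -0.038, -0.067 and -0.019. The list of immediate early genes lay 0.037 above it under quantile normalization. No list had more than 1 gene called higher.

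Casp2-depleted nuclei gave the interval a second reading with libraries of their own. Their pools too held 6 hearts at P7 and 2 at P14. Reads on no gene made up 34.3 to 64.3% of their uniquely placed reads at P7 and 72.2 to 76.1% at P14. Detected genes numbered 14006 to 17770 at P7 and 9428 to 12327 at P14. Agreement between the genotypes therefore does not tell the day from the number of pooled hearts. Fibroblast markers took 0.0113 to 0.0181% of the reads of these libraries at P7 and 0.0202 to 0.0379% at P14. Endothelial markers took 0.016 to 0.0416% and 0.0555 to 0.06%. Macrophage and Schwann markers were higher at P14 and mural markers lower, each without overlap, while erythroid and epicardial markers overlapped. Cardiomyocyte markers took 4.50 to 6.46% at P7 and 1.59 to 2.72% at P14. The part of other cells was not tested in these libraries either. Casp2 itself could not check their labels, as it had 2.61, 2.16 and 0.655 CPM and no read in P7 control replicates 1 to 4, at most 2.38 CPM in Casp2-depleted P7 libraries and no read in either group at P14. In Casp2-depleted nuclei 577 genes were called (2.83%), 2 higher and 575 lower (2.82%). The same fit gave the spread of each gene for both genotypes, so calls in the 2 genotypes are not independent. Of the 380 genes called lower in controls, 376 were lower in the fit of the Casp2-depleted libraries, against 60.1% of all tested genes, and 235 (61.8%) were called lower there. All tested genes had a lower median level in controls at P7 than the 380, at 13 against 279 CPM. Groups did not overlap for 297 of the 380 (78.2%), against 10.9% of all genes. For the 221 genes with reads in each P14 control library, 174 (78.7%) were called lower in Casp2-depleted nuclei, and for the 66 genes without a read at P14 in controls 21 (31.8%) were. Tnnt2 had 10654 to 21184 CPM at P7 and 1418 to 3112 CPM at P14 in these nuclei (log2 fold change -2.64 ± 0.32), close to the -2.5 of controls. Rbm25 had -2.46 ± 0.35 and Mhrt -2.78 ± 0.33, with non-overlapping days in each. SR protein and nuclear speckle genes again had the most calls, 22 of 33 lower, with a median of -3.60. Kcnd3 had 59.8 to 167 CPM at P7 and 681, 305 and 133 CPM at P14 there, with overlap and an adjusted p of 0.20. Fbxo43 had 0 to 25.3 CPM at P7 and 0 to 0.705 CPM at P14, and the test of the difference between genotypes gave an adjusted p of 0.27.

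**Figure D5:**
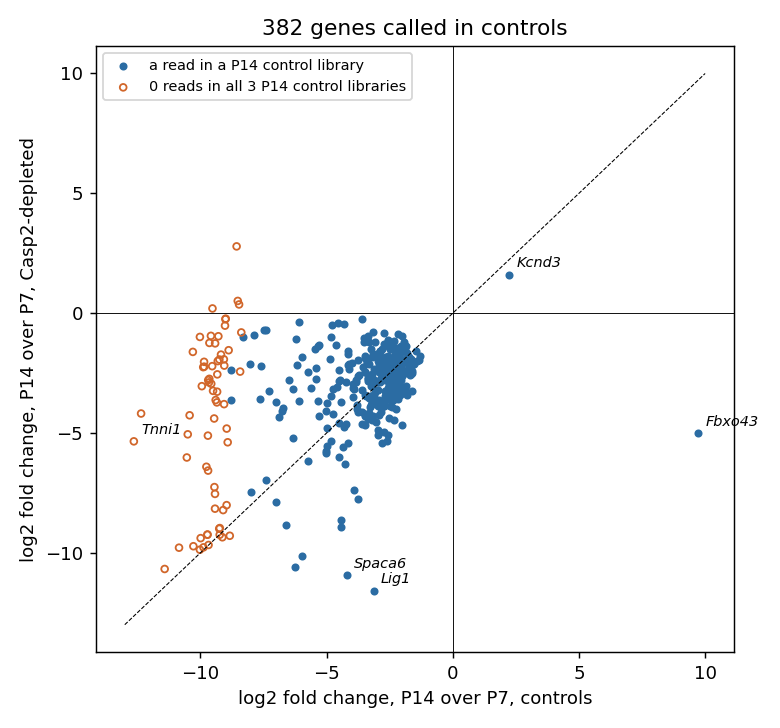
Log2 fold change of P14 over P7 in control nuclei (horizontal axis) against that in Casp2-depleted nuclei (vertical axis) for the 382 genes called in controls, with filled points for genes with a read at P14 in controls, open points for those without and a dashed line of equality. Of the 380 genes called lower in controls, 376 lie below 0 on the vertical axis.

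The change itself differed between genotypes for 5 genes (0.0245% of those tested), while 1987 (9.76%) had an unadjusted p below 0.05. Tnni1 fell less in Casp2-depleted nuclei, where it had 425 to 982 CPM at P7 and 43.7, 3.15 and 0.655 CPM at P14, and the difference in log2 fold change was 7.29 ± 1.09 (adjusted p = 5.2e-07). As the control libraries had no read at P14, the size of this difference depends on the fit. Lig1, Pdgfa (a platelet-derived growth factor), Spaca6 (a protein of the sperm surface) and Psma4 (a subunit of the proteasome) fell further in Casp2-depleted nuclei, by differences of -8.43, -8.35, -6.74 and -3.75 (adjusted p of 0.00026, 0.012, 0.012 and 0.024). Lig1, Pdgfa and Spaca6 had no read in the 3 Casp2-depleted P14 libraries, so these sizes depend on the fit too. With the replicate block the differences of these 4 genes were no longer called, and with the bias-adjusted test or filterByExpr none of the 5 was. In controls Spaca6 had 179 to 251 CPM at P7 and 35.3 CPM in P14 replicate 1 alone, Pdgfa had 56.2 to 199 CPM at P7 and 6.36, none and 60 CPM at P14, and Psma4 had 184 to 629 CPM at P7 and 284, 32.3 and 128 CPM at P14.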

How the data were processed

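RNA of PCM1-sorted CM nuclei was sequenced from the 3′ end (QuantSeq 3′ FWD). The authors trimmed reads with cutadapt 4.0, checked them with FastQC 0.11.8, aligned them with STAR 2.6.1e to GRCm39 and deposited raw counts per gene from HTSeq 2.0.3, counted over the whole gene, introns included. The strand setting of the counting is not given in the sources used here. Of 56923 gene identifiers per library, 56236 had a name. The share of uniquely placed reads on no gene, 36.7 to 75.2% in the 7 libraries, stayed out of library totals and tests.

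The 21 libraries kept by the study (of 24) were fitted together with edgeR 4.0.16 (robust quasi-likelihood test, TMM factors, 1 coefficient per genotype and day) in R 4.3.3, over the 20368 genes that had 10 or more reads altogether and were read in 3 or more libraries. Calls needed an adjusted p (Benjamini-Hochberg) under 0.05 together with a log2 change beyond 1 in either direction, and SEs were derived from the F statistic. The biological coefficient of variation was 1.50, with 15 residual degrees of freedom. Levels are CPM scaled by TMM factors, and a gene without reads in a group was set to a floor of 3 reads over that group for its bound. The floor covers counting error only, so fold changes given as at least a value do not bound the spread between pools. Alternatives used DESeq2 1.42.0, limma 3.58.1, other scalings and filters, and leaving out libraries.

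On counts simulated for this comparison, 0 of 200 genes changed 4-fold and 61 of 200 changed 16-fold were recovered (54 rises and 7 falls), with 1 false call. As many genes rose as fell in the simulation, and it had no shift of all genes. The calls in the data were nearly all falls, so its recovery does not measure that of the real falls. The members, gene lists and alternatives were chosen with earlier results of these data known. Named genes were taken from the called genes higher at P14 and the 10 of smallest p among those not called, the 12 most abundant and the 8 steepest of the called genes lower at P14 without overlap (the latter with a read at P14), the 4 steepest called and 2 most abundant genes of each list, the contractile isoforms and the genes called for the difference between genotypes. File names give the replicate number as a batch. Control samples with the same number at P7 and P14 did not deviate together (correlations of 0.056, -0.046 and -0.003). Within P7, same-numbered control and Casp2-depleted libraries had correlations of 0.179, 0.030, 0.042 and 0.076, and pairs of other numbers -0.132 to 0.082. Whether the number stands for a batch was not tested. The main fit has no replicate block, and the block is given as an alternative. Promoter sequences are from RefSeq. The result for 1 gene is not reported here.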

Additional observations from a re-analysis of the deposited data

Results flagged for a closer look

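The change from P7 to P14 differed between genotypes for 5 genes by edgeR's test of the difference. The difference in log2 fold change, Casp2-depleted minus control, was 7.29 for Tnni1 (adjusted p = 5.2e-07), -8.43 for Lig1 (adjusted p = 0.00026), -8.35 for Pdgfa (adjusted p = 0.012), -6.74 for Spaca6 (adjusted p = 0.012) and -3.75 for Psma4 (adjusted p = 0.024).

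In 4 of 83 groups of 4 P7 control libraries tested, 1 library lay far above the others by Dixon's criterion, and chance gives about 1 in 20. These were P7 replicate 2 for Lmo7 (6531 CPM, the nearest at 4216 CPM) and for Ryr2 (29525 CPM, the nearest at 15042 CPM), and P7 replicate 1 for Myom2 (502 CPM, the nearest at 225 CPM) and for Srsf3 (153 CPM, the nearest at 39.3 CPM).

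The left-out P14 control replicate 3 had 0.970% of its reads on mitochondrially encoded genes, against at most 0.264% in the P14 libraries used, and 12.7% on cardiomyocyte markers, against at most 4.40%.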

How the results depend on the processing

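The count of genes called in controls, 382, became 1031 with DESeq2 (71 higher and 960 lower), 574 with edgeR's bias-adjusted quasi-likelihood test, 231 with filterByExpr, 1150 with limma-voom and TMM, 702 with limma-voom and quantile normalization (92 higher and 610 lower), 121 without normalization factors (27 higher and 94 lower), 65 when only genes with a read in each of the 7 libraries were tested and 35 with all 24 libraries. Leaving out 1 library gave 176 to 502 calls. The bias-adjusted test, the edgeR fit without robust estimation and the fits without a Casp2-depleted library were chosen after seeing the data. In Casp2-depleted nuclei, 577 calls became 1171 with DESeq2, 124 with all 24 libraries, 248 without normalization factors and 258 to 642 without 1 library. The 5 calls of a difference between genotypes became 246 with DESeq2, 0 with the bias-adjusted test and with filterByExpr, and 4 to 47 without 1 library. With the replicate block, controls had 445 calls, 346 of them among the 382, and the difference between genotypes 2, of which 1 was among the 5. The fall in detected genes was -7574.5 with P14 replicate 3 included, against -5542. The log2 fold change changed sign under quantile normalization for Myh7 (0.22), Tnnc1 (0.039), Cacna1c (0.041), Ryr2 (0.66), Luc7l3 (0.18) and Ctnna3 (0.12), without normalization factors for Myh7 (0.00011), and with all 24 libraries for Srsf3 (0.031), Atp5mg (1.54), mt-Cytb (0.31) and Mdm4 (0.37). The causes were not tested.

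Of the 59 called genes with a fold change in the text, 52 were still called with the replicate block, 27 under limma-voom with TMM, 32 with every library left out in turn and 7 in every alternative other than a left-out library. Of the 22 genes not called, 13 passed the threshold in an alternative. Depth limits what can be said of a gene without reads. At 891817 to 1278961 reads per P14 library its level there is known only as a bound. This bound covers counting error and not the spread between pools.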
